A study of Mus musculus with 38 samples.

Results

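Bulge stem cells are the CD34+ keratinocytes at the base of the permanent hair follicle, and each new hair is rebuilt from them. They rest through telogen, the quiescent phase of the hair cycle, and are called into division at the onset of anagen, the growth phase, by secreted signals from the dermal papilla and from the dermis around the follicle. In the hairy nevus model the oncogene *Nras* Q61K is carried as a transgene behind the *Tyr* promoter, which directs it to pigment cells, so the bulge keratinocytes were profiled as neighbours of nevus melanocytes and not as the cells to which the oncogene was directed. Osteopontin, the secreted phosphoprotein encoded by *Spp1*, binds CD44 and several integrins, is cut by matrix metalloproteases and is made by osteoblasts, macrophages and activated stromal cells.

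The data described here are the genes of bulge stem cells at postnatal day 30 (P30), compared between mutant (Mut) and wild type (WT) mice. The cells had been sorted from dorsal skin as GFP+CD34+P-cadherin low cells. Controls carried *K14-H2B-GFP*, a histone-GFP reporter driven in basal keratinocytes, and mutants carried *Tyr-Nras* Q61K together with the same reporter, so both groups share the reporter. There were 2 Mut and 2 WT libraries at this age, 4 of the 38 libraries of the series. The study's methods describe its sorted samples as biological triplicates, while the bulge data hold 2 libraries per group. The labels do not tie the libraries to animals or experiments, and the p-values rest on how far these libraries lie apart, whatever the source of that spread. At P30 wild type follicles are in anagen. Another 4 bulge libraries, 2 Mut and 2 WT from P56, when wild type follicles are in telogen, entered the same fit and lent it their estimate of the spread.

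Of the 16152 protein-coding genes among the 20224 genes of the bulge table, 11757 had 1 FPKM (a read count scaled by transcript length and by the size of the library) or more in at least 2 of the 4 P30 libraries, and these are the genes described. Changes are given as Mut minus WT on the log2(FPKM + 1) scale, which understates the ratio of genes with low FPKM. Depth is unknown, since the table holds no read counts, and its lowest listed value is 0.1 FPKM. Called genes are those with a limma adjusted p under 0.05 that changed at least 2-fold. The P30 libraries listed 12174 to 12504 genes at 1 FPKM or more. Between replicates, the SD of the log2 difference over the 11757 genes was 0.235 in WT and 0.382 in Mut at P30, against 0.509 and 0.466 at P56, so the WT pair stood closest of the 4 pairs. Whether the WT pair differed by more than the sampling noise could not be tested without counts. *Nras* itself was at 54.8 and 55.0 FPKM in WT and 52.99 and 46.66 FPKM in Mut (-0.14, limma adjusted p = 0.907). Neither the labels nor the study say whether this value includes transcripts of the transgene.

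At P30, 82 genes were higher and 27 lower in mutant than in wild type bulge cells, 0.697% and 0.23% of the 11757 genes and 0.927% together. With the 4 P30 libraries fitted alone 231 were higher and 105 lower, 1.96% and 0.893% and 2.86% together, and the 82 and 27 were all among them. At an unadjusted p under 0.05, 4.24% of the 11757 genes were higher and 4.87% lower, which is the background for the counts at that threshold given for the gene lists. The median log2 change of all 11757 genes was -0.07, that of the 82 was 2.22 and that of the 27 was -1.50. The higher group was led by the osteopontin gene, by matrix metalloproteases and by interstitial collagens, and many of its genes were near the bottom of the table in wild type: 40 of the 82 had a WT mean under 1 FPKM, and 7 were at the table's lowest value in both WT libraries. Both Mut libraries lay above both WT libraries in 16% of all genes and below in 28.7%, so a lack of overlap alone is common in these 4 libraries. Of the 82 genes, 60 were higher in Mut replicate 2 than in Mut replicate 1.

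**Figure D1:**
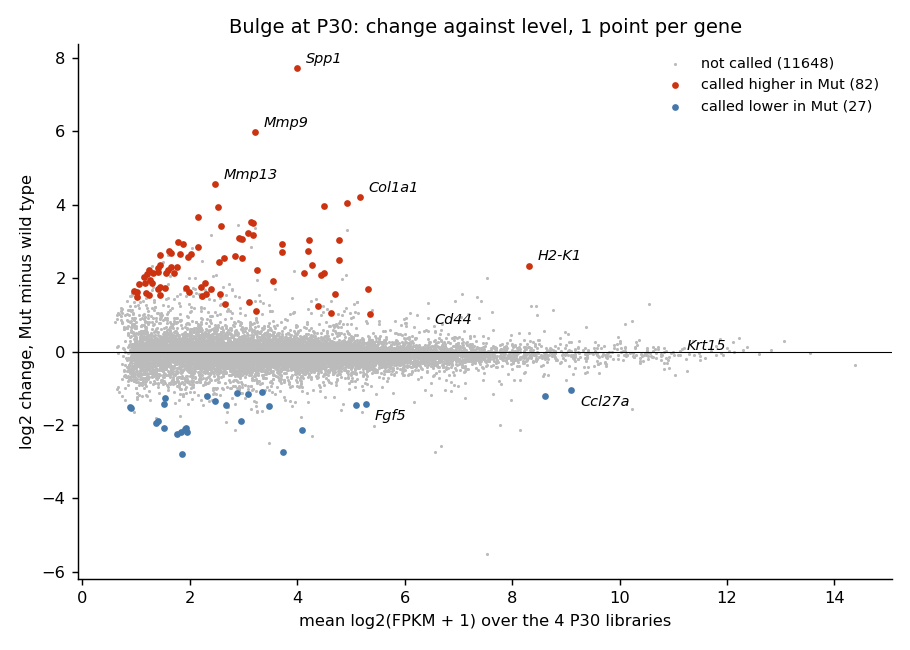
Log2 change of each of the 11757 genes at P30 (Mut minus WT, vertical axis) against its mean log2(FPKM + 1) over the 4 P30 libraries (horizontal axis). The 82 genes called higher (red) reach 7.72 for *Spp1*, 5.98 for *Mmp9* and 4.56 for *Mmp13*, the 27 called lower (blue) lie between -2.78 and -1.04, and the bulge markers and *Cd44* lie among the genes not called (grey).

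*Spp1* (chr5:104435118-104441050, plus strand, GRCm38) showed the largest change of the 11757 genes. It was listed at 0.1 FPKM, the lowest value of the table, in both WT libraries and at 109 and 489 FPKM in the 2 Mut libraries. The groups were far apart, and Mut replicate 2 was the higher of the pair. On the fitted scale the change was 7.72 ± 0.74 (SE, limma adjusted p = 0.00256), a value that rests on the pseudocount because WT was at the floor. *Mmp9*, the gelatinase that cuts denatured collagen and osteopontin, followed with 0.2 and 0.13 FPKM in WT and 46.0 and 115 FPKM in Mut (5.98 ± 0.55, adjusted p = 0.00209). *Mmp13*, the interstitial collagenase, had 0.14 FPKM in each WT library and 16.8 and 39.7 FPKM in Mut (4.56 ± 0.36, adjusted p = 0.00183). All 3 were called also when any of the 4 P30 libraries was left out.

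The letters in front of these genes were read from the RefSeq promoter table of the same build, and 4 stretches of 160 bases that end just before the transcription start listed by RefSeq are shown because they carry the 2 short motifs described next. For *Col6a1* that start lies inside the GENCODE gene, so most of its stretch, marked letters included, is within the gene, and for *Sprr1b* the last bases are. Capitals mark the AP-1-type letters TGANTCA, a loose pattern with any base in the middle that reads the same on both strands. They also mark the interferon-stimulated response element core, which is GAAA, any 2 bases and GAAA again, or TTTC, any 2 bases and TTTC on the other strand.
*Spp1*, chr5:104434951-104435110, plus strand: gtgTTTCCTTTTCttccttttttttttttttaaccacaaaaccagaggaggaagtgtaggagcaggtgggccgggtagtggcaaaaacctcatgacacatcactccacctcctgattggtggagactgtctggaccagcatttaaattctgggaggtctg
*Mmp13*, chr9:7272354-7272513, plus strand: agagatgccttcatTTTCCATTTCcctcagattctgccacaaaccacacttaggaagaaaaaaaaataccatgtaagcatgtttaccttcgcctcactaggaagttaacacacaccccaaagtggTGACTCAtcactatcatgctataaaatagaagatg
*Col6a1*, chr10:76726045-76726204, minus strand: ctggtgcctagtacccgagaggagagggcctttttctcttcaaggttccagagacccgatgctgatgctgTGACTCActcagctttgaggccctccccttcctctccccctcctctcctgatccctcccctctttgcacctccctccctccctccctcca
*Sprr1b*, chr3:92438780-92438939, minus strand: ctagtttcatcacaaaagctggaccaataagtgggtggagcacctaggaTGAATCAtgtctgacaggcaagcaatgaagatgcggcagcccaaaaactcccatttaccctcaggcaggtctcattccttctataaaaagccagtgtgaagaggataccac

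Over the 250 bases before any listed start, TGANTCA was found in 8 of the 61 higher genes that have an entry, in 1 of 19 lower genes and in 5.46% of the 8906 genes described that have one. The 8 were *Ahcy*, *Col6a1*, *Cyp4f16*, *Lrrc15*, *Mmp13*, *Sprr1b*, *Srpx2* and *Tfpi2*. The interferon-stimulated core, on either strand, was found in 8 of the 61, in 1 of the 19 and in 3.04% of the 8906. Those 8 were *Fbn1*, *H2-T22*, *H2-T23*, *Ifi205*, *Mmp13*, *Ncoa4*, *Saa3* and *Spp1*. The NF-kB letters, GGGA, any base and TTTCC, on either strand, were in none of the 61 and none of the 19 and in 0.483% of the 8906. *Mmp9* and *Col1a1* have no entry. These counts describe letters and not bound sites.

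**Figure D2:**
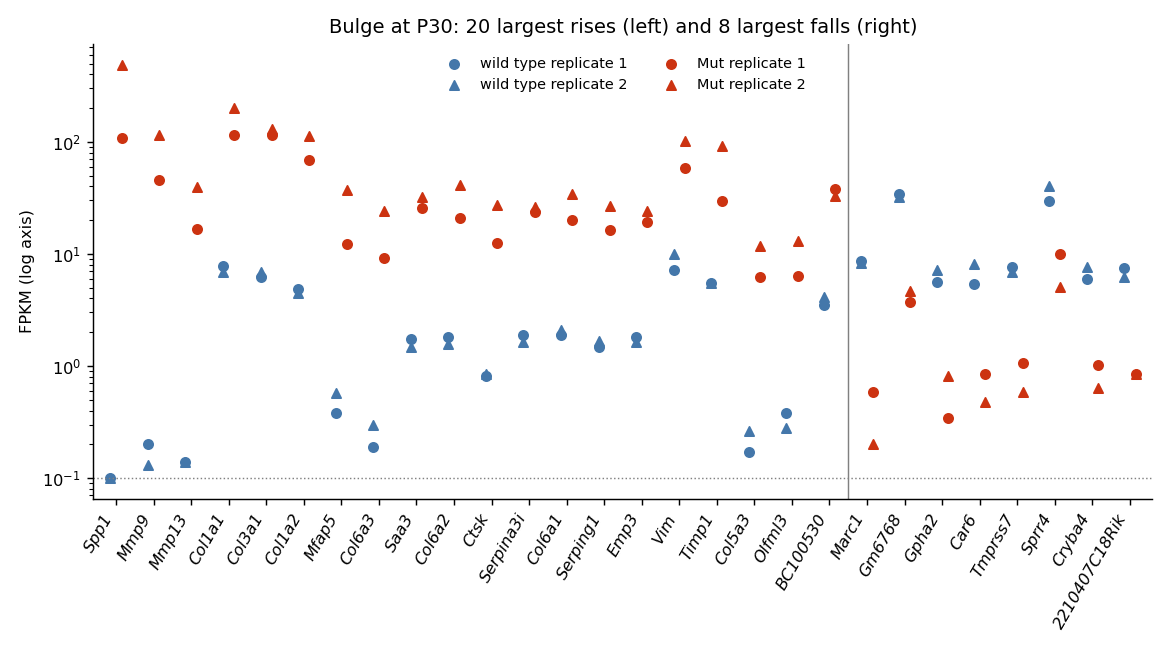
FPKM (log axis) in the 2 WT (blue) and 2 Mut (red) bulge libraries at P30, circles for replicate 1 and triangles for replicate 2, for the 20 largest rises (left of the line) and the 8 largest falls (right of it) among called genes whose groups do not overlap and whose higher group has a mean of 5 FPKM or more. The dotted line is the lowest listed value, 0.1 FPKM, at which both *Spp1* values of WT lie, while those of Mut are 109 and 489 FPKM.

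The fibrillar collagens, the rope-like collagens of connective tissue, had the highest median change of the 55 gene lists described, 3.48 against -0.07 over all genes. Of the 6 tested, 4 were called higher and none lower. *Col1a1*, a chain of type I collagen, went from 7.79 and 6.88 FPKM in WT to 116 and 201 FPKM in Mut (4.21 ± 0.34, limma adjusted p = 0.00183). *Col3a1*, type III collagen, went from 6.16 and 6.89 to 115 and 131 FPKM (4.04 ± 0.27, adjusted p = 0.00171). *Col1a2*, the partner chain of type I collagen, had 4.89 and 4.50 FPKM in WT and 69.2 and 113 FPKM in Mut. *Col5a3* rose by 2.99, while *Col5a1* (1.42, adjusted p = 0.0825) and *Col5a2* (1.38, adjusted p = 0.106) were not called. The 4 called collagens were called also without any one of the 4 P30 libraries.

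Collagen VI, a beaded-filament collagen built from 3 chains, was called for each of the chains tested. *Col6a1* (chr10:76708792-76726168, minus strand) was at 1.90 and 2.10 FPKM in WT and 19.9 and 34.3 FPKM in Mut (3.18), *Col6a2* at 1.81 and 1.58 against 21.1 and 40.8 FPKM (3.50), and *Col6a3* at 0.19 and 0.30 against 9.13 and 23.9 FPKM (3.68). The other 4 genes of that list, *Col8a1*, *Col12a1*, *Col14a1* and *Col16a1*, were not called, with changes of -0.09 to 0.62. Among matrix glycoproteins 5 of 24 were called higher and none lower (median 0.40). These were the microfibril and elastic fibre genes *Mfap5* (0.38 and 0.57 against 12.2 and 37.4 FPKM), *Mfap4*, *Eln*, *Emilin1* and *Fbn1*. The count was 2 without Mut replicate 2 or either WT library and 4 without Mut replicate 1. Small leucine-rich and large proteoglycans had a median of 1.13, and all 8 tested changed upward in sign with no overlap of the groups, but only *Lum*, lumican, was called (0.70 and 0.52 against 8.30 and 10.3 FPKM, 2.67). With the 4 P30 libraries fitted alone, 6 of these 8 were called.

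Of 10 tested matrix metalloproteases, 4 were called higher and none lower (median 1.29). Besides *Mmp9* and *Mmp13* these were *Mmp11*, a secreted stromelysin (1.17 and 1.87 against 9.01 and 17.2 FPKM, 2.43), and *Mmp23* (2.14). *Mmp14*, the membrane-bound protease that keratinocytes express at high level, had 89.6 and 88.3 FPKM in WT and 112 and 103 FPKM in Mut and was not called (0.27, adjusted p = 0.761). The count of 4 was 2 without Mut replicate 2 or without either WT library, and 6 with the 4 P30 libraries alone. Among inhibitors of matrix proteases 2 of 6 were called higher. *Timp1*, a secreted metalloprotease inhibitor, was at 5.45 FPKM in each WT library and at 29.4 and 92.0 FPKM in Mut (3.04, adjusted p = 0.0158). *Serpine2*, protease nexin 1, had 4.92 and 5.02 against 15.2 and 30.9 FPKM (1.93, adjusted p = 0.0464). Neither was called without a WT library, 1 of them without either Mut library, and *Serpine2* in none of these 4 fits. *Timp2* and *Timp3*, the more abundant family members, were not called. *Pcolce*, which speeds the cutting of procollagen, was the 1 of 15 collagen maturation genes called (2.09 and 2.34 against 12.9 and 24.9 FPKM, 2.56), and *Adam12* the 1 of 12 ADAM and ADAMTS proteases (1.49).

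Several of these genes are also markers of fibroblasts and stand in that list too, so its values are not separate from those above. Of its 11 tested genes 7 were called higher and none lower (median 2.22), 4 to 6 without 1 of the P30 libraries with the lowest count without Mut replicate 2, and the summed FPKM of its 12 genes was 134 and 129 in WT and 495 and 640 in Mut. Of the 7 called, *Col1a1*, *Col1a2*, *Col3a1*, *Lum*, *Mfap5* and *Fbn1* were already counted in the matrix lists. The other was *Dpt*, dermatopontin (0.57 and 0.23 against 5.80 and 5.16 FPKM, 2.22, limma adjusted p = 0.0349). None of the 12 was at the table's lowest value in all 4 libraries. *Vim*, vimentin, the intermediate filament of mesenchymal cells, was at 7.14 and 10.0 FPKM in WT and 58.8 and 102 FPKM in Mut (3.05, adjusted p = 0.0168), and *Olfml3*, a secreted olfactomedin protein, at 0.38 and 0.28 against 6.34 and 13.1 FPKM (2.94). *Pdgfra*, the receptor that defines dermal fibroblasts, was at 0.13 and 0.48 FPKM in WT and at 1.97 and 1.22 FPKM in Mut (0.99, adjusted p = 0.173), and *Dcn*, decorin, at 96.9 and 91.8 against 147 and 118 FPKM (0.47, adjusted p = 0.833). The dermal papilla list had no called gene among 8 tested by limma, with 3 higher and 1 lower at unadjusted p under 0.05 (median 0.63), and its summed level was 29.4 and 30.1 FPKM in WT against 42.8 and 36.5 FPKM in Mut. In bulk libraries more cells of another type and more RNA of these genes per bulge cell cannot be told apart, and the part of fibroblast RNA in the rise of the matrix genes was not tested. In mural cell markers 1 of 7 was called, *Pdgfrb* (0.61 and 0.35 against 2.81 and 5.05 FPKM, 1.70).

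Markers of the other cell types of the skin gave few calls. Macrophage and monocyte markers had no gene called of 4 tested, 1 was higher at unadjusted p under 0.05, and their summed level was 9.25 and 13.6 FPKM in WT and 17.9 and 13.4 FPKM in Mut, with *Ms4a7* at the table's lowest value in all 4. The defining marker *Ptprc*, the leukocyte antigen CD45, was at 0.14 and 0.29 FPKM in WT and 0.33 and 0.54 FPKM in Mut. *Adgre1*, F4/80 of macrophages, was at 0.2 FPKM in each WT library and at 0.1 and 0.17 FPKM in Mut. The genes of this list that were not tested stayed under 1 FPKM in these 4 libraries. Among them *Ptprc*, *Fcgr1*, *Mrc1*, *C1qa*, *C1qb*, *C1qc* and *Aif1* were higher in both Mut libraries than in both WT libraries. *Adgre1* and *Cd163* were lower, and *Csf1r* overlapped between the groups. With the 4 P30 libraries fitted alone, 1 tested gene of this list was called higher. *Lyz2*, lysozyme, was at 0.97 and 1.01 against 4.81 and 3.88 FPKM (1.42, adjusted p = 0.286) and *Cd68* at 3.81 and 7.45 against 5.04 and 3.33 FPKM. Melanocyte markers summed to 13.7 and 12.9 FPKM in WT and 22.1 and 23.2 FPKM in Mut, with none of 6 called and 3 higher at unadjusted p under 0.05. Among them *Dct*, dopachrome tautomerase, was at 5.60 and 5.34 against 9.63 and 8.71 FPKM (0.65, adjusted p = 0.334), and *Tyr*, tyrosinase, stayed under 1 FPKM in every library (0.26 and 0.16 against 0.39 and 0.33 FPKM) and was not tested. No gene was called among 4 T and NK cell, 4 Langerhans and dendritic cell, 2 neutrophil, 3 Schwann cell, 2 skeletal muscle or 4 erythroid markers tested, with 1, 1, 0, 1, 0 and 0 at unadjusted p under 0.05, respectively. Of the 2 adipocyte markers tested, *Lpl*, lipoprotein lipase, was called (1.85 and 1.71 against 6.70 and 7.22 FPKM, 1.52), the median was 1.28, and the summed level was 11.5 and 13.9 FPKM in WT against 47.4 and 19.9 FPKM in Mut. Endothelial markers summed to 5.12 and 5.6 FPKM in WT and 3.66 and 4.14 FPKM in Mut. The basal keratins overlapped between the groups, with *Krt14* at 12499 and 11712 FPKM in WT and 10339 and 13462 FPKM in Mut and *Krt5* at 7188 and 7131 against 6627 and 8097 FPKM.

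**Figure D3:**
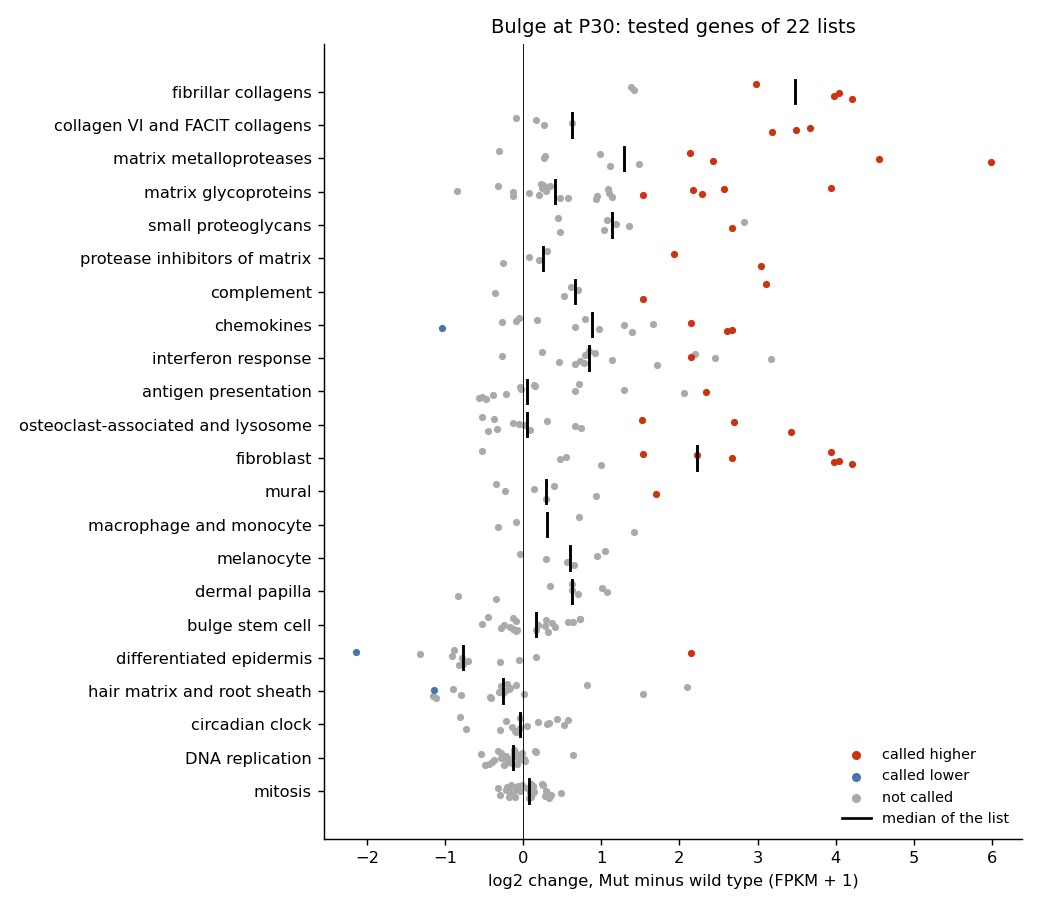
Log2 change (Mut minus WT) of every tested gene of 22 gene lists, 1 point per gene, with called genes in red (higher) or blue (lower) and a black bar at the median of the list. The fibrillar collagens (median 3.48) and fibroblast markers (2.22) lie to the right, and both of these lists hold *Col1a1*, *Col1a2* and *Col3a1*. Bulge stem cell (0.16), DNA replication (-0.13) and mitosis genes (0.08) lie around 0.

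Immune and inflammatory genes made up a further share of the rises. *Saa3*, an acute-phase serum amyloid, went from 1.73 and 1.49 FPKM in WT to 25.9 and 32.5 FPKM in Mut (3.53, limma adjusted p = 0.0178). *H2-K1*, a classical MHC class I heavy chain, was the most abundant of the called genes that rose, with 129 and 152 FPKM in WT and 838 and 603 FPKM in Mut (2.34, adjusted p = 0.0107). It was the only one of 14 tested antigen presentation genes called. The related class I gene *H2-T23*, which stands in no list, was called too (9.24 and 9.90 against 58.7 and 32.3 FPKM, 2.08). *B2m*, the class I light chain, had 962 and 964 against 1850 and 2980 FPKM (1.28, limma adjusted p = 0.113) and was called with the 4 P30 libraries alone. *H2-K1* was not called once any of the 4 P30 libraries was left out.

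Of 14 tested chemokines 3 were called higher and 1 lower (median 0.88). *Ccl8* was at 0.1 and 0.40 FPKM in WT and 7.66 and 6.23 FPKM in Mut (2.67), *Ccl7* at 1.32 and 2.64 against 12.6 and 22.02 FPKM (2.60) and *Cxcl9* at 0.62 and 0.47 against 4.02 and 8.36 FPKM (2.15). *Ccl27a*, a chemokine made by keratinocytes that attracts T cells, fell from 829 and 749 FPKM to 380 and 387 FPKM (-1.04, adjusted p = 0.0208). None of the 4 was called once any P30 library was left out. Of the 15 tested interferon response genes, 14 changed upward in sign (median 0.84) and 1 was called, *Cxcl9*. The others included *Oas1a*, an antiviral sensor of double-stranded RNA, with 0.94 and 0.56 against 14.1 and 15.3 FPKM (3.17, adjusted p = 0.229), and *Bst2*, tetherin, with 5.70 and 6.68 against 32.8 and 31.3 FPKM (2.20, adjusted p = 0.118). Their P30 groups did not overlap, but the 2 Mut libraries of P56 that share the fit differed in them, with *Oas1a* at 1.27 and 28.1 FPKM and *Bst2* at 13.1 and 55.3 FPKM. With the 4 P30 libraries alone 6 of the 15 were called, and without either P56 Mut library 5 were.

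Complement genes had 2 of 6 called higher, *Serping1*, the C1 inhibitor (1.47 and 1.66 against 16.4 and 26.9 FPKM, 3.10), and *C1ra* (1.53). Of 14 osteoclast-associated and lysosome genes 3 were called higher, among them *Ctsk*, cathepsin K, the collagen-degrading protease of osteoclasts and fibroblasts (0.81 and 0.84 against 12.6 and 27.2 FPKM, 3.43), and *Gpnmb* (4.33 and 3.95 against 55.0 and 19.0 FPKM, 2.70), a membrane glycoprotein of pigment cells and macrophages. The third was *Lpl*. Without 1 of the 4 P30 libraries the count of these genes was 1 to 2, and that of complement genes was 1. The lysosomal enzymes at high level, *Ctsd* and *Ctsb*, were not called (-0.33 and 0.08). Of 40 tested factors of the senescence-associated secretory phenotype, 7 were called higher and none lower (median 0.61), *Spp1*, *Mmp9*, *Mmp13*, *Timp1*, *Ccl8*, *Ccl7* and *Serpine2*. The count was 3 to 4 when a P30 library was left out and 13 with the 4 P30 libraries alone. *Cdkn2b*, a cyclin-dependent kinase inhibitor, was at 19.8 and 19.8 FPKM in WT and 27.1 and 33.1 FPKM in Mut (0.57, adjusted p = 0.568), and *Cdkn2a* did not exceed 0.24 FPKM in any of the 4 libraries.

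None of the osteopontin receptors tested was called in the fit of all 8 bulge libraries. *Cd44* was at 69.4 and 65.6 FPKM in WT and 102 and 102 FPKM in Mut, a change of 0.59 (95% interval 0.20 to 0.99) that was not called (limma adjusted p = 0.249), although the groups did not overlap. Of the 8 genes tested in the list of osteopontin and its receptors, *Spp1* was the only one called. At unadjusted p under 0.05 by limma 3 of the 8 were higher and none lower. With the 4 P30 libraries fitted alone 2 were called higher, *Spp1* among them. *Itgav*, the integrin chain that binds it, was at 25.7 and 27.8 against 21.0 and 22.8 FPKM, and *Itgb1* at 63.5 and 63.2 against 69.0 and 76.3 FPKM.

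The identity genes of the bulge did not pass the test at this age. Of 21 tested bulge stem cell markers none was called by limma in either direction, 2 were higher and none lower at unadjusted p under 0.05, and the median was 0.16. *Cd34*, the sorting marker, was at 38.2 and 34.9 FPKM in WT and 50.6 and 41.6 FPKM in Mut (0.32, 95% interval -0.47 to 1.12). *Krt15*, the classical bulge keratin, was at 2254 and 2248 against 2176 and 2040 FPKM (-0.10, 95% interval -0.53 to 0.34), and *Nfatc1*, a transcription factor of bulge quiescence, at 2.83 and 4.16 against 5.39 and 4.47 FPKM (0.41, 95% interval -0.44 to 1.27). *Cdh3*, P-cadherin, by which hair germ cells were kept out of the sort, was at 85.5 and 83.4 against 75.9 and 58.8 FPKM (-0.33).

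Of 8 tested genes that the study lists for quiescence, 1 was called. Their median change was 0.45 against -0.07 over all genes, and 6 of the 8 changed upward in sign. In 6 of the 8 both Mut libraries lay above both WT libraries, as in 16% of all genes. *Wif1*, a secreted WNT inhibitor, was higher in Mut (1.56 and 1.55 against 9.34 and 7.40 FPKM, 1.87, adjusted p = 0.0107). It was called in none of the 4 fits that left out a P30 library. The study named these genes from its bulge comparison at P56, so their direction at that age is not independent evidence. No mitosis gene was called of 35 tested, and none at unadjusted p under 0.05. No DNA replication gene was called of 30, with 1 higher at unadjusted p under 0.05. *Mki67*, the proliferation marker, was at 11.5 and 10.4 FPKM in WT and 13.2 and 10.2 FPKM in Mut. Nor was a gene called among 16 circadian clock, 17 BMP signalling, 22 immediate early, 8 Hedgehog, 13 RAS-MAPK feedback, 18 p53 target and cell cycle inhibitor, 18 glycolysis and hypoxia, 17 cholesterol synthesis or 7 gamma-secretase genes, where unadjusted p under 0.05 gave 1, 3, 1, 0, 3, 0, 1, 1 and 1 genes, respectively. The most abundant immediate early genes *Fos* (5349 and 4852 against 5203 and 5840 FPKM) and *Jun* (1305 and 1120 against 1261 and 1324 FPKM) overlapped between the groups. In the cytokine lists *Tgfb3*, a transforming growth factor, was the only one called of 13 interleukin and TNF family genes (2.02 and 1.68 against 7.24 and 7.72 FPKM, 1.58), and of 28 WNT and 13 TGF-beta target genes *Wif1* and *Col1a1* were the only ones called. Of 8 IGF axis genes none was called, with 2 higher and 1 lower at unadjusted p under 0.05.

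Epithelial genes moved both ways. *Sprr1b*, a cornified envelope precursor induced in activated keratinocytes, rose from 8.92 and 10.7 to 43.9 and 49.7 FPKM (2.15, limma adjusted p = 0.00209) and was called without any one P30 library. *Krt42*, a type I keratin, was at 7.34 and 7.60 against 51.0 and 35.7 FPKM (2.37), and *Krt16*, a keratin of activated epidermis and of the companion layer, at 89.6 and 94.0 against 327 and 414 FPKM, which missed the threshold (1.99, adjusted p = 0.0624). In differentiated epidermis, 1 of 12 genes was called higher and 1 lower, and the median was -0.78. Only 2 of the 12 changed upward in sign, and at unadjusted p under 0.05 by limma 1 was higher and 4 lower. The lower one was *Sprr4* (30.0 and 40.4 against 9.99 and 5.03 FPKM, -2.14, adjusted p = 0.0259), another member of the small proline-rich family. The suprabasal keratins *Krt1* (156 and 150 against 90.5 and 82.2 FPKM) and *Krt10* (231 and 225 against 145 and 122 FPKM) had lower values in both Mut libraries and were not called. Of 19 tested hair matrix and root sheath genes *Krt32*, a hair cuticle keratin, was the only one called (9.24 and 10.7 against 4.24 and 3.72 FPKM, -1.14). At unadjusted p under 0.05 by limma, 3 of the 19 were higher and 5 lower (median -0.26).

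Among the falls *Fgf5*, the growth factor that ends anagen, is the best known hair cycle gene. It was at 68.1 and 57.5 FPKM in WT and 28.38 and 18 FPKM in Mut (-1.43 ± 0.26, limma adjusted p = 0.0426), with no overlap. *Tmprss7*, a membrane serine protease, fell from 7.71 and 6.86 to 1.06 and 0.58 FPKM (-2.20, adjusted p = 0.00438). Besides *Tmprss7*, *Sprr4* and *Gm6768*, a near copy described further on, the 8 largest falls included *Marc1*, a mitochondrial reductase (8.60 and 8.38 against 0.58 and 0.20 FPKM, -2.78), *Gpha2*, a glycoprotein hormone subunit (5.59 and 7.19 against 0.34 and 0.81 FPKM), *Car6*, a secreted carbonic anhydrase (5.36 and 8.13 against 0.85 and 0.48 FPKM), *Cryba4*, a crystallin, and the uncharacterised *2210407C18Rik*. None of the 27 falls was called in more than 1 of the 4 fits that left out a P30 library, against 18 of the 82 rises that were called in all 4 of them. Without WT replicate 1 or WT replicate 2 limma called 0 falls, with 228 and 240 genes lower at unadjusted p under 0.05, and 21 rises each time.

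Some called genes have near copies in the genome, between which counting can split reads. In 17 called genes, 13 higher and 4 lower, a transcript of another gene matched over at least 200 bases and 95% identity. *Ncoa4*, the nuclear receptor coactivator and ferritin receptor, was called higher (7.93 and 6.79 against 36.2 and 35.2 FPKM), and its copy *Gm6768*, 99.6% identical over 1883 bases, was called lower (34.4 and 32.1 against 3.69 and 4.66 FPKM). Their sum was 42.3 and 38.9 FPKM in WT and 39.9 and 39.9 FPKM in Mut. In the same way *Ahcy*, S-adenosylhomocysteine hydrolase, was called higher (5.97 and 6.30 against 51.2 and 41.9 FPKM), its copy *Gm4737* went from 149 and 151 to 100 and 92.3 FPKM, and their sum was 155 and 157 FPKM in WT and 152 and 134 FPKM in Mut. In other cases the sum moved with the called gene: *Ccl27a* and its copy summed to 832 and 753 FPKM in WT and 383 and 389 FPKM in Mut, *C1ra* with *C1rb* to 0.75 and 0.66 against 3.8 and 4.26 FPKM, and *C1qtnf5* with *Mfrp* to 1.59 and 0.23 against 7.62 and 16.3 FPKM. The calls of *Ncoa4*, *Gm6768* and *Ahcy*, and those of *BC100530*, *BC117090*, *Mup9*, *C1ra*, *Ccl27a*, *Cdh11*, *Serpina3i*, *Cyp4f16*, *C1qtnf5*, *H2-T22*, *H2-Q7*, *Ifitm1*, *Adam12* and *Gm43816*, are uncertain as changes of 1 gene. *Spp1* and the called collagens and metalloproteases had no such copy, and genes not called were not searched.

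**Figure D4:**
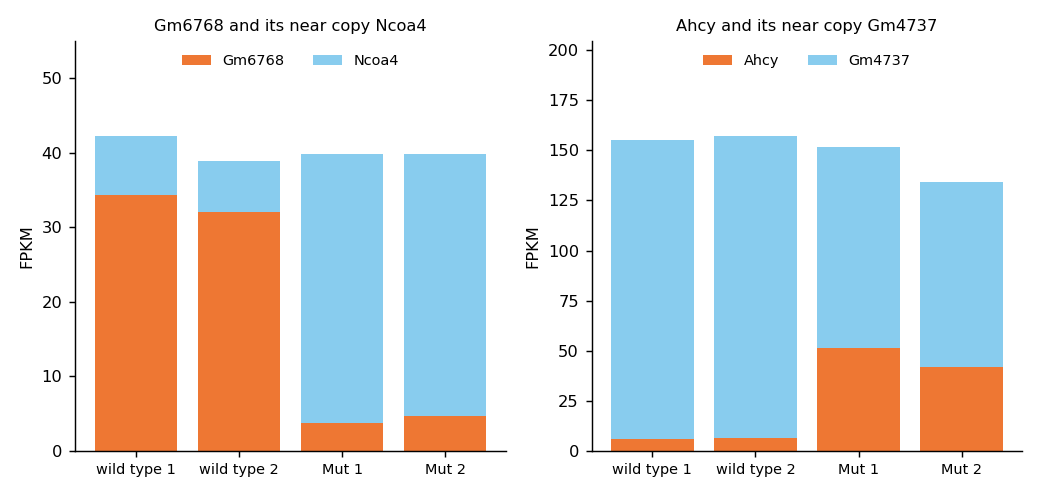
FPKM of *Gm6768* stacked under its near copy *Ncoa4* (left), and of *Ahcy* stacked under *Gm4737* (right), in the 2 WT and 2 Mut bulge libraries at P30, with bars from 0. The shares of the copies differ between WT and Mut while the *Ncoa4* and *Gm6768* sums are 42.3, 38.9, 39.9 and 39.9 FPKM.

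The same genes were then read in the P56 bulge libraries, which have their own controls but share the fit and its estimate of the spread with P30. A gene with a small spread is called more readily at both ages. The shares of all genes set beside the rises here and the falls below are therefore not an independent background. Of the 82 genes higher at P30, 30 were called higher at P56 (36.6%, where 5.94% of all genes were called higher), 8 lower and 44 neither, and those 30 are 4.30% of the genes called higher at P56. *Spp1* was higher at both ages, with 1.05 and 0.1 FPKM in WT and 67.7 and 17.3 FPKM in Mut at P56 (4.56, limma adjusted p = 0.00362), and its difference between ages missed the threshold (-3.16, adjusted p = 0.108). *Timp1* rose by 3.04 at P30 and 3.36 at P56. *Mmp9* and *Mmp13* rose at both ages and by less at P56 (2.67 and 2.30). Of the 82 genes, 37 had a called difference between ages that was negative, towards a smaller or opposite change at P56, and 3 a positive one, where 3.25% and 4.28% of all genes were called and 7.53% in all. This difference contains the P30 change by which the 82 were chosen, so nothing is read from these counts. The 3 were *Ahcy*, *Krt42* and *Sprr1b*.

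Collagen VI was among the genes that changed sign between ages. *Col6a1* was at 96.3 and 129 FPKM in WT at P56 and at 11.4 and 10.5 FPKM in Mut, a change of -3.24 where that at P30 was 3.18. *Col6a2* rose by 3.50 at P30 and changed by -2.51 at P56, and *Col6a3* rose at both (3.68 and 1.59). *Emp3*, a small membrane protein, changed by 3.06 and -1.14 and *Wif1* by 1.87 and -1.20. Of the 27 falls at P30, 6 were called lower and 7 higher at P56 (22.2% lower and 25.9% higher, where 5.25% and 5.94% of all genes were). *Fgf5* was lower in Mut at P30 and higher at P56, where it was at 0.84 and 0.41 FPKM in WT and 48.5 and 39.5 FPKM in Mut (4.80, adjusted p = 8.48e-05), and *Sprr4* turned likewise (4.29 at P56). The ages differ in more than the hair cycle: *Xist* was at 0.1 to 0.33 FPKM in the 4 P30 libraries and at 24.9 to 38.4 FPKM in the 4 P56 libraries, and *Ddx3y* at 16.1 to 21.1 and at 0.1 FPKM, so age and sex cannot be told apart in these differences.

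**Figure D5:**
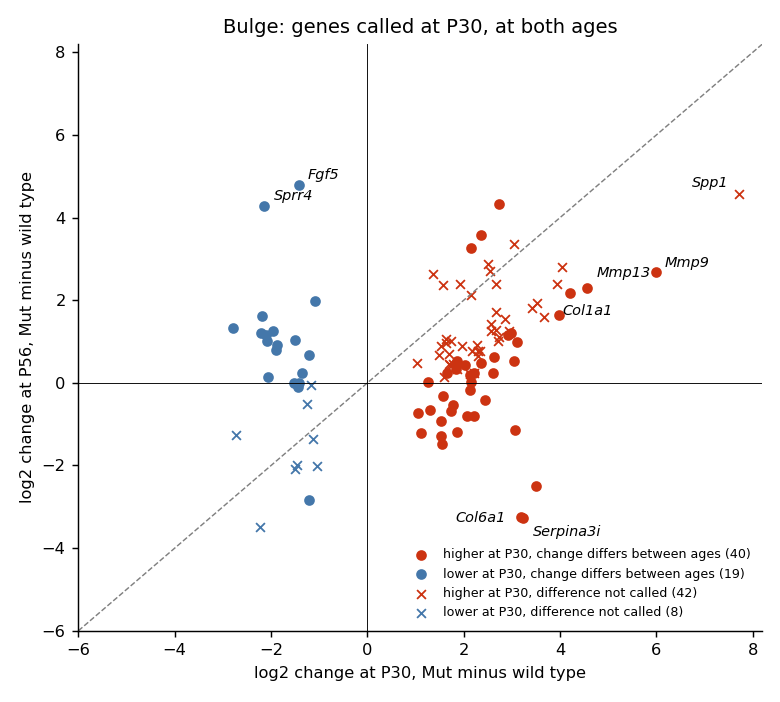
Log2 change (Mut minus WT) at P56 against that at P30 for the 109 genes called at P30, red for higher and blue for lower, with circles where the change differed between ages by limma and crosses where that difference was not called. *Spp1*, *Mmp9*, *Mmp13* and *Col1a1* lie above 0 at both ages, *Col6a1* and *Serpina3i* fall below 0 at P56, and *Fgf5* and *Sprr4* lie below 0 at P30 and above it at P56. The dashed line marks equal changes.

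In dermal papilla cells of P30 skin, sorted and tabulated separately with 2 libraries per group, 68 of the 82 genes could be tested. There 1.49% of 12255 genes were called higher and 4.19% lower, 5.69% together. Of these, 13 were higher in Mut (19.1%, where 1.27% of the 10790 genes tested in both were), 7 lower (10.3%, where 3.32% were) and 48 neither, and their median change was -0.06 against -0.13 over all genes tested in both. The 13 are 9.49% of the 137 genes called higher there. *Spp1* was at 17.0 and 17.2 FPKM in WT and 110 and 123 FPKM in Mut dermal papilla (2.70), *Mmp9* at 0.23 and 0 against 20.3 and 23.8 FPKM (4.37) and *Mmp13* at 0 and 0.21 against 5.41 and 8.60 FPKM (2.83). *Saa3* and *Serping1* went the other way there, with changes of -3.12 and -1.35.

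The tables of the 5 cell types with wild type P30 libraries were normalized separately, so the levels that follow are set across tables. For *Col1a1* the wild type P30 means were 7.34 FPKM in the bulge and 545 FPKM in the dermal papilla. Among these cell types *Spp1* was highest in myeloid cells, at a mean of 228 FPKM, and *Mmp9* in the immune cell libraries, at 95.5 FPKM. Of the 82 rises, 42 (51.2%) were highest in the dermal papilla and 8 (9.76%) in the bulge, where 29.3% and 31.8% of all genes were. Of the 27 falls, 19 (70.4%) were highest in the bulge. The wild type bulge values by which these genes were called enter this ranking and favour such shares, so nothing is read from them.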

How the data were processed

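Bulge stem cells of dorsal skin were profiled by bulk RNA-seq, with 4 libraries at P30 and 4 at P56, 2 per genotype. The authors made full-length cDNA, aligned paired reads with STAR 2.4.2 (version per the labels) to GRCm38 (mm10) and computed FPKM with RSEM. The deposited FPKM tables, 1 for each cell type, hold no read counts, so the depth of a library is unknown and no counting interval is given. Steps left by whole reads were looked for in the low values, and at most 4.81% of low genes fell in a log2 bin of 0.02.

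Protein-coding genes with 1 FPKM or more in at least 2 of the 4 P30 libraries were tested. The log2(FPKM + 1) values of all 8 bulge libraries were modelled with limma 3.58.1 (R 4.3.3), with 1 mean per group and a variance trend, two-sided, with Benjamini-Hochberg adjustment over all 11757 genes. Genes with an adjusted p under 0.05 and a 2-fold change were called. The count test of the study could not be run on FPKM. The P56 contrast, its difference from P30 and the dermal papilla P30 contrast (12255 genes) were fitted likewise. The fit was tested on simulated data. Replicate numbers did not pair the libraries (correlation of deviations 0.008 at P30). Near copies were found with blastn 2.17.0 among GENCODE transcripts, and promoter letters were read from RefSeq entries of GRCm38.p6.

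There were 55 gene lists with 761 genes, 569 of them tested, which hold 41 of the 109 called genes (37 higher, 4 lower). Lists were described by counts and medians without a set test. Lists, members and rules were chosen with earlier results of these data known. Named genes are the 20 largest rises and 8 largest falls among called genes with no overlap and a mean of 5 FPKM or more in the higher group, up to 4 called genes per list or the 2 most abundant where none was called, and 17 genes of the sort, the oncogene and the nevus, among them *Spp1*, *Cd44*, *Cd34*, *Fgf5* and *Nras*. Genes named beyond this rule were chosen after their values were seen: the called genes with near copies and those copies, the genes listed with a motif, *Krt42*, *H2-T23*, *Xist*, *Ddx3y*, and *B2m*, *Bst2*, *Oas1a*, *Col5a1*, *Col5a2*, *Col8a1*, *Col12a1*, *Col14a1*, *Col16a1*, *Ctsb*, *Ctsd*, *Dcn*, *Fbn1*, *Itgav*, *Itgb1*, *Krt1*, *Krt10*, *Mmp14*, *Ms4a7*, *Pdgfra*, *Ptprc*, *Adgre1*, *Timp2* and *Timp3* of the lists. Also of the lists and chosen in this way were *Aif1*, *C1qa*, *C1qb*, *C1qc*, *Cd163*, *Csf1r*, *Fcgr1*, *Mrc1* and *Dpt*. Alternatives changed the pseudocount, filter, gene types, scaling, variance model, replicate block, fold limit and libraries.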

Additional observations from a re-analysis of the deposited data

Results flagged for a closer look

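For 50 of the genes named in the report the difference between Mut and WT in the bulge itself differed between P56 and P30 (limma interaction term, adjusted p under 0.05 and 2-fold or more). The values that follow are the P56 change minus the P30 change on the log2 scale. Among genes called higher at P30 the difference was -6.48 for *Serpina3i*, -6.42 for *Col6a1*, -6.003 for *Col6a2*, -4.20 for *Emp3*, -3.31 for *Mmp9*, -3.07 for *Wif1*, -2.89 for *H2-T23*, -2.85 for *Mmp11*, -2.80 for *Lpl* and -2.53 for *Vim*. It was also -2.46 for *C1ra*, -2.41 for *Ifitm1*, -2.37 for *Ccl7*, -2.32 for *Col1a2*, -2.31 for *Mmp23*, -2.26 for *Mmp13*, -2.12 for *Serping1*, -2.12 for *Cdh11*, -2.03 for *Col1a1* and -1.998 for *Tfpi2*. It was also -1.99 for *H2-T22*, -1.94 for *Srpx2*, -1.89 for *Tgfb3*, -1.77 for *Col5a3*, -1.75 for *BC100530*, -1.51 for *Ifi205*, -1.41 for *BC117090*, 1.12 for *Sprr1b*, 1.198 for *Krt42* and 1.599 for *Ahcy*. Among genes called lower at P30 it was 1.43 for *Gm43816*, 2.22 for *Mup9*, 3.10 for *2210407C18Rik*, 3.25 for *Cryba4*, 3.41 for *Car6*, 3.82 for *Tmprss7*, 4.11 for *Marc1*, 6.22 for *Fgf5* and 6.42 for *Sprr4*. Among genes not called at P30 it was -3.29 for *Cd34*, -3.16 for *Nfatc1*, -1.87 for *Krt15*, 1.59 for *Cdh3*, 1.69 for *Ctsd*, 1.71 for *Cdkn2b*, 1.80 for *Gm4737*, 1.87 for *Col8a1*, 2.39 for *Col16a1* and 2.69 for *Dcn*. It was also 3.29 for *Timp3*. Since the P30 change enters the difference, nothing is read from the signs of genes called at P30. Age and sex cannot be told apart in these differences. Groups of 2 libraries were too small for a check of outlying samples.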

How the results depend on the processing

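The 82 rises and 27 falls at P30 became 45 and 15 with a pseudocount of 5 FPKM, 51 and 14 with a filter of 5 FPKM, and 231 and 105 with the 4 P30 libraries alone. The number of falls was 17 with no filter on low values. With the replicate number as a block the counts were 142 and 59, but the numbers did not pair the libraries (correlation of deviations 0.00835 at P30 and 0.194 at P56), and the block moved no other count of calls by over 1.5 times. Leaving out 1 of the 8 libraries gave 21 to 120 rises and 0 to 42 falls. Without Mut replicate 1 or 2 of P30 the rises were 44 and 24 and the falls 4 and 6. The called differences between ages, 503 positive and 382 negative, ranged from 202 to 664 and from 119 to 423, with the lowest values without a WT P30 library. The dermal papilla counts, 183 higher and 514 lower, ranged from 22 to 280 and from 68 to 648 when a library was left out, and 335 were lower after rescaling by the median ratio. The cause was not tested. The P56 counts of 698 and 617 stayed within 1.5 times under the alternatives run, and so did the P30 counts with the other scalings, variance models, gene types, fold limit and the pseudocount of 0.1 FPKM. Of the 115 named genes tested, those called at P30 kept their sign under the alternatives, some not called, among them *Krt14*, *Krt15*, *Krt5*, *Mki67* and *Jun*, did not, and 34, 34, 28 and 33 of the called genes missed the threshold without WT replicate 1, WT replicate 2, Mut replicate 1 and Mut replicate 2, respectively. With 1 library left in a group, that library was assumed to vary like those of the other groups. Depth is unknown, so low FPKM carry no counting interval.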

Other observations

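The largest negative change among the 11757 genes at P30 was not called, and its 2 Mut libraries were far apart. *Gm10260*, chosen here after its values were seen, was at 1161 and 1357 FPKM in WT, at 0.1 FPKM in Mut replicate 1 and at 671 FPKM in Mut replicate 2 (-5.53, limma adjusted p = 0.469).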
